A study of Mus musculus with 24 samples.

Results

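Interferons are secreted proteins that warn cells of viruses and other microbes. Types I and III signal mainly through the kinases Jak1 and Tyk2 to a complex that contains Stat2 and Irf9 and binds the interferon-stimulated response element (ISRE) of its target genes, whereas interferon gamma acts on the gamma-activated site (GAS). In the gut, epithelial cells keep a part of these genes on at rest, and lymphocytes and macrophages of the villus respond to interferon gamma as well. The 36 interferon response genes described here were listed by symbol as known interferon targets. The rule uses no measured value, although the list was chosen with earlier results of these data known. All 36 were found among the 25410 gene symbols of the deposited tables, and all 36 reached the minimum level for testing, 0.5 RPKM (reads scaled to gene length and to sequencing depth) or more in at least 6 of 24 libraries.

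The data are RNA sequencing of duodenum, the first part of the small intestine, from male Cyp27b1-/- mice. These animals lack the enzyme that makes 1,25-dihydroxyvitamin D3 (1,25D), the hormone that binds the vitamin D receptor, and all were fed without vitamin D after weaning at 3 weeks. The rescue diet supplied 2% calcium, 1.25% phosphorus and 20% lactose, and the normal diet 0.47% calcium and 0.3% phosphorus. At 8 weeks of age they were injected into the peritoneum with 2 ng 1,25D per g of body weight or with vehicle, and tissue was taken 6 h later. There are 6 libraries each of rescue 1,25D, rescue vehicle, normal 1,25D and normal vehicle. No mouse with an intact Cyp27b1 gene was among these groups, so each of them carries the null genotype and the vitamin D-deficient feed. The labels speak of 12 mice per diet and 8 injected mice per group, do not tie libraries to animals, and do not describe the null allele, so p-values reflect how much the libraries vary, whatever animals they came from.

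Cyp24a1, which breaks 1,25D down, reached at least 92.1 RPKM in every 1,25D library and at most 4.03 RPKM in every vehicle library, and rose on both diets (log2 fold change 9.0 on the rescue diet and 9.1 on the normal diet), and Cyp27b1 itself lay at or below 0.452 RPKM throughout. The absolute depth is unknown. Relative depth, read from the steps between low RPKM values, ran between 0.606 and 1.67 around the average library. Enterocyte markers were abundant in all libraries, at 2910 to 15013 summed RPKM over 17 genes, whereas exocrine pancreas markers ran between 307 and 94321 summed RPKM over 22 genes. Rescue vehicle replicate 2 stood apart for the interferon response genes: it had the highest value of all 24 libraries for 19 of the 36, lay above its group mean for 36 of 36, and its median deviation from that mean was 0.68 on the log2 scale, against 0.02 over all genes tested. Values without it stand beside the comparisons of groups it moved most.

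Promoter sequences show which of these genes carry the interferon elements close to their start. RefSeq promoter windows (build GRCm38.p6, 250 bases before to 50 after the start) were matched for 26 of the 36 genes by symbol. An ISRE, searched as GAAA, any 2 bases and GAAA, or on the other strand as TTTC, any 2 bases and TTTC, was found for 14 of these 26 genes (53.8%), against 3.99% of 27025 genes with a window. Counted by window, it was in 14 of 32 (43.8%), against 3.44% of 32851 windows. A GAS, searched as TTCNNNGAA, whose reverse complement is the same, was found for 7 of 26 genes (26.9%), against 9.55% of genes. Matches can overlap each other, as the 3 of Isg15 do. A match is a string of letters and not a bound site. The 180 bases before the start are printed below on the strand of the gene, with each ISRE match in capitals, for genes that vary with Irf7 in the libraries (Isg15, Ifit1 and Oas1a), for Ifit3, a relative of Ifit1 with a weaker relation to Irf7, for Gbp2, which has a match yet does not vary with Irf7, and for Oasl2, which varies most closely with Irf7 and has no match in its window. The stretches lie at chr4:156200819-156200998 (minus strand), chr19:34640709-34640888 (plus strand), chr19:34583349-34583528 (plus strand), chr5:120907526-120907705 (minus strand), chr3:142620483-142620662 (plus strand) and chr5:114896754-114896933 (plus strand).
Isg15: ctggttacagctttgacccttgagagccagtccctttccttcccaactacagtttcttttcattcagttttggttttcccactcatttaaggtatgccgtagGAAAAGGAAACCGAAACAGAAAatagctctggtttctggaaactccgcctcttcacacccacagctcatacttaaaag
Ifit1: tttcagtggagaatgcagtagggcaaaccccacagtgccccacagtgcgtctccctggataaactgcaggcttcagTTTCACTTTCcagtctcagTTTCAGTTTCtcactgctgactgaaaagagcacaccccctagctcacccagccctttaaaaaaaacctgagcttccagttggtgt
Ifit3: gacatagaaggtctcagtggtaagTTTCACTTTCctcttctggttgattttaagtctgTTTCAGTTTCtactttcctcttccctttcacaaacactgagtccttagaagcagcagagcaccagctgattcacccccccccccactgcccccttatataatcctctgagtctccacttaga
Oas1a: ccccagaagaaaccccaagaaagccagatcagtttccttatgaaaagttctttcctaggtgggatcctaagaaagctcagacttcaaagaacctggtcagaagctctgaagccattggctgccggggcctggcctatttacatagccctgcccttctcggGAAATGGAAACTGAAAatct
Gbp2: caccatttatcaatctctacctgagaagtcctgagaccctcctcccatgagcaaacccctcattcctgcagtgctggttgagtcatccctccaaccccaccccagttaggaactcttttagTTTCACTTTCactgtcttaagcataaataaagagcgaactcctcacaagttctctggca
Oasl2: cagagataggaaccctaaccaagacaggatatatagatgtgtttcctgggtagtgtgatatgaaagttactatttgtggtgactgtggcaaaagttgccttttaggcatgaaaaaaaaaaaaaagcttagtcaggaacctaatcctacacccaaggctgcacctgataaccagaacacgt

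The genes spanned a wide range of levels on the RPKM scale, which is per length and so allows genes to be compared. Ifi27l2b, a small hydrophobic protein of the Ifi27 family, was the most abundant at a mean of 193 RPKM over 24 libraries. The transcription factor Irf1 followed at 45.5 RPKM, then the ADP-ribosyltransferase Parp14 at 28.9, the double-stranded RNA sensor Ifih1 (MDA5) at 23.2, the RNA-activated kinase Eif2ak2 (PKR) at 22.7 and Irf9 at 19.6 RPKM. The lowest were the synthetases Oas3 (0.960 RPKM) and Oas2 (0.878), the pro-apoptotic factor Xaf1 (0.760), and the T cell attracting chemokines Cxcl9 (0.631) and Cxcl10 (0.466). Only Isg20, an RNA exonuclease, Cxcl9 and Cxcl10 were listed at 0 anywhere, in 1, 1 and 2 libraries. Oas1a, the Ifit genes and the Ifi27l2 genes have close relatives, so the split of reads between copies is uncertain. Between libraries of the same group the genes had a median SD of 0.41 on the log2 scale, against 0.35 over all genes tested, from 0.22 for the steadiest gene to 0.74 for the most variable.

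**Figure D1:**
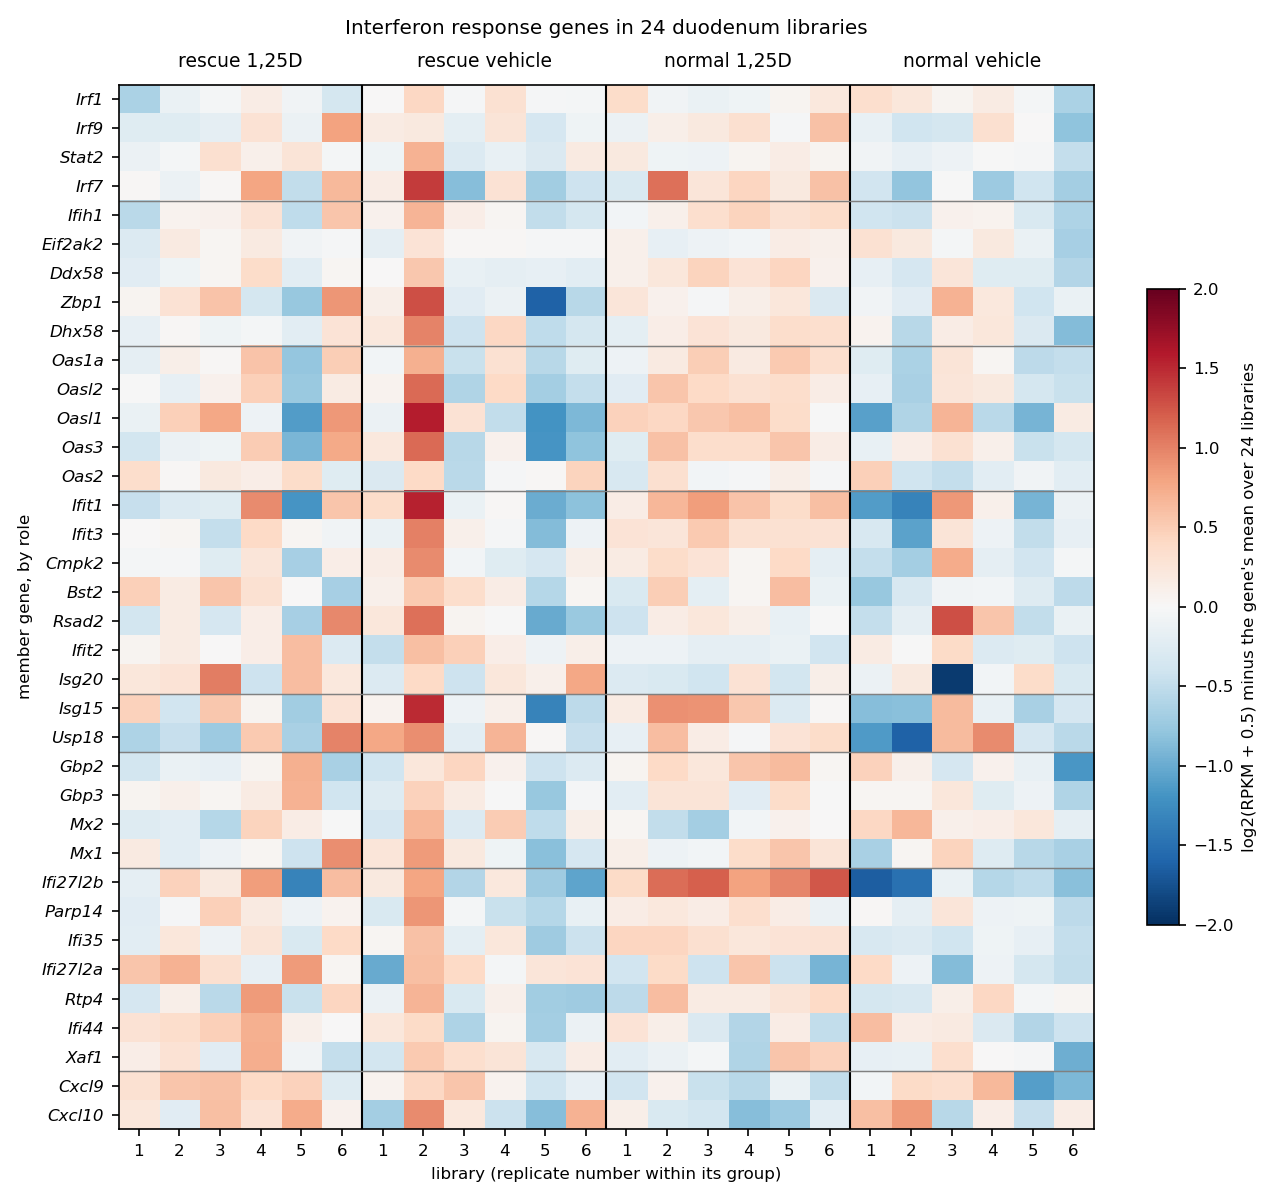
Each row is 1 of 36 interferon response genes, grouped by role, and each column 1 of 24 libraries; colour gives log2(RPKM + 0.5) minus the mean of the gene over all libraries, with 6 libraries each of rescue 1,25D, rescue vehicle, normal 1,25D and normal vehicle. The column of rescue vehicle replicate 2 is the darkest red, with the highest value of 24 for 19 genes, and rescue vehicle replicate 5 was the lowest of its group for 24 genes.

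The first comparison asks how 1,25D acts on mice fed the normal diet. A single interferon response gene passed the test, Ifi27l2b, which was 3.53-fold higher after 1,25D. That is 1 of 36 genes, against 1.84% of all 20006 genes tested. Its level had a lowest value of 214, a median of 341 and a highest of 388 RPKM in normal 1,25D, and 51.9, 101 and 149 RPKM in normal vehicle, so the groups did not overlap. The log2 fold change was 1.82 (SE 0.33, adjusted p = 0.00247, n = 6 each), and leaving out any 1 library moved it between 1.66 and 1.97 with the call kept. Beneath the threshold, 30 of the 36 genes had a fold change above 0 (83.3%, against 58.8% of all genes), and 11 of 36 (30.6%) had an unadjusted p under 0.05, all in the direction of higher values, against 9.74% of all genes in that direction. The median log2 fold change of the 36 was 0.35, against 0.05 over all genes.

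Ifi35, which pairs with the adaptor Nmi, came closest to the threshold. It had 12.5, 13.2 and 14.4 RPKM (lowest, median, highest) in normal 1,25D, against 7.51, 8.55 and 9.90 RPKM in normal vehicle, again with no overlap. The log2 difference was 0.61 (SE 0.16, adjusted p = 0.0527), and adjusted p ran between 0.0220 and 0.109 when single libraries were left out, with 19 of 24 such fits leaving it uncalled. The lowest was without rescue vehicle replicate 2, which enters through the shared spread. With the mean of enterocyte markers as a covariate the log2 difference was 0.18 (adjusted p = 0.669). Ifi27l2b and Ifi35 were the 2 of 36 genes whose groups did not overlap upward, against 2.13% of all genes.

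Among the RNA sensors, Ddx58 (RIG-I) had 11.4, 12.8 and 14.7 RPKM in normal 1,25D, against 6.98, 8.93 and 12.7 RPKM in normal vehicle (log2 0.48, SE 0.14, adjusted p = 0.0852; between 0.0276 and 0.203 without single libraries, and 0.0409 without rescue vehicle replicate 2). Ifih1 had 21.6, 28.3 and 30.8 RPKM in normal 1,25D, against 14.4, 17.5 and 23.9 RPKM in normal vehicle (log2 0.52, adjusted p = 0.199). In both genes the 1,25D libraries sat high but reached into the vehicle range. The regulator Dhx58 (LGP2), with a log2 value of 0.40, the nucleic acid sensor Zbp1 (0.04) and Eif2ak2 (0.03) had smaller differences, and none of the 5 sensors was called.

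Irf7, the factor that amplifies the type I response, had 3.54, 5.83 and 10.2 RPKM in normal 1,25D, against 2.39, 2.95 and 4.49 RPKM in normal vehicle (log2 0.87, SE 0.30, adjusted p = 0.160). Irf9 differed by 0.40, Stat2 by 0.19 and Irf1 by 0.04 on the log2 scale. None of the 4 transcription factors passed the test, and Irf1, the one most tied to interferon gamma, had the smallest difference of them.

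The antiviral effectors were uneven. Ifit1, which binds foreign messenger RNA, had 14.0, 19.1 and 22.6 RPKM in normal 1,25D, against 4.66, 8.90 and 23.3 RPKM in normal vehicle (log2 0.95, SE 0.39, adjusted p = 0.280). Ifit3, its partner, had 15.1, 15.8 and 18.4 RPKM in normal 1,25D, against 5.80, 10.7 and 15.4 RPKM in normal vehicle (log2 0.63, adjusted p = 0.164). The 1,25D libraries were close together in both, and the spread was in the vehicle group. Tetherin (Bst2) differed by 0.42 and the nucleotide kinase Cmpk2 by 0.35, whereas Ifit2 (-0.11), viperin (Rsad2, -0.11) and Isg20 (0.15) were near 0 on the log2 scale.

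Isg15, a ubiquitin-like protein, had 2.94, 4.86 and 7.36 RPKM in normal 1,25D, against 1.82, 2.48 and 5.96 RPKM in normal vehicle (log2 0.74, SE 0.34, adjusted p = 0.385), and Usp18, the protease that removes it, differed by 0.54. The oligoadenylate synthetases, which activate the RNA-degrading RNase L, and their Oasl relatives had log2 differences between 0.15 for Oas2 and 0.78 for Oasl1, with Oas1a at 0.53. The GTPases did not move as a block, with Gbp2 at 0.49, Mx1 at 0.46, Gbp3 at 0.18 and Mx2 at -0.40. The chemokines lay below 0, Cxcl9 at -0.21 and Cxcl10 at -0.51. No gene of these 4 groups was called. The remaining induced proteins had log2 differences of 0.25 (Parp14), 0.20 (the receptor chaperone Rtp4), 0.17 (Xaf1), 0.05 (Ifi27l2a) and -0.08 (Ifi44).

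**Figure D2:**
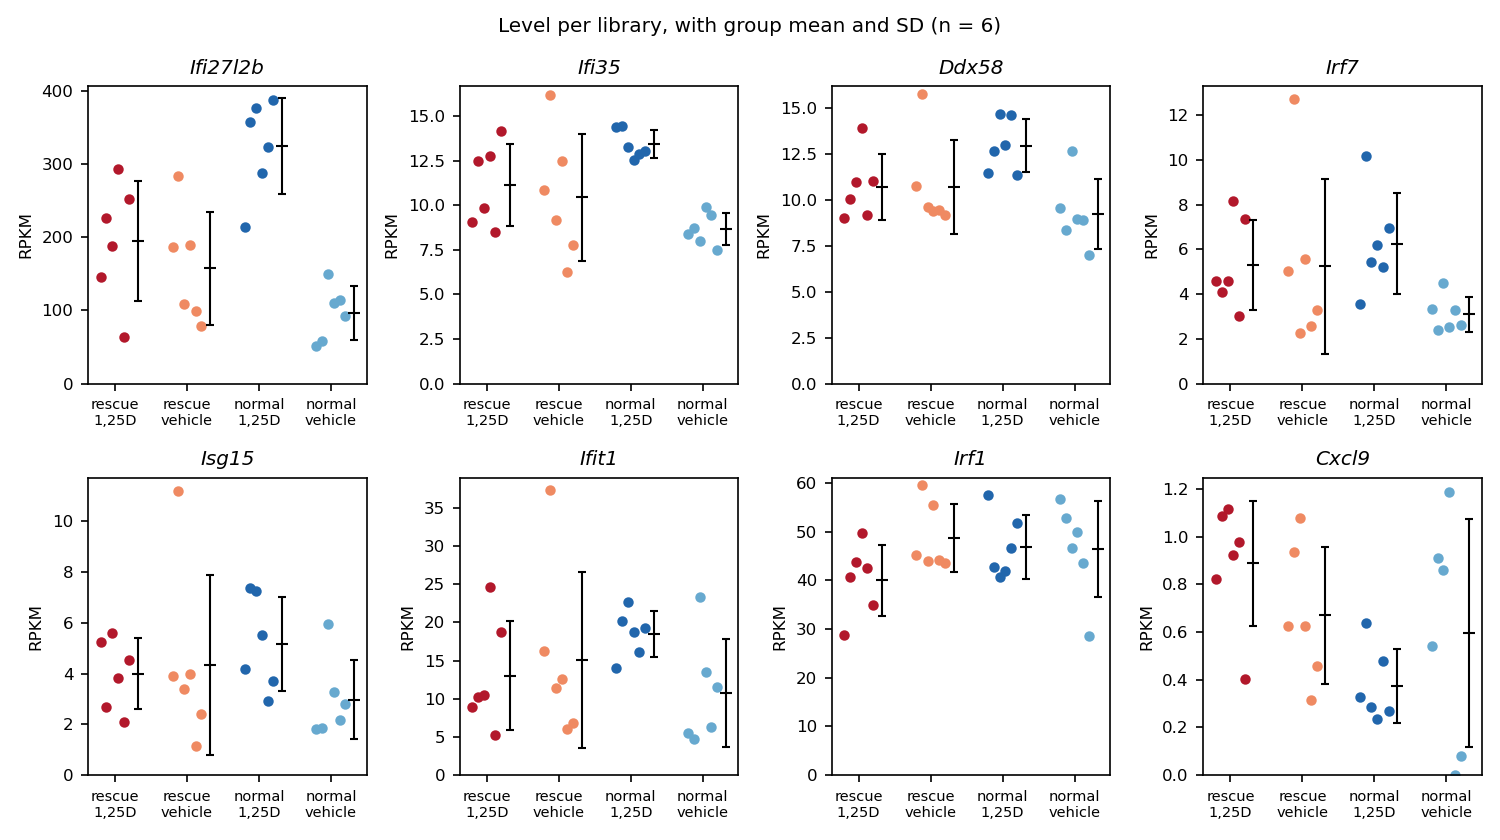
RPKM of 8 interferon response genes in each of 24 libraries (points), with the mean and SD of each group of 6 in black; the groups are rescue 1,25D, rescue vehicle, normal 1,25D and normal vehicle. Ifi27l2b and Ifi35 separate normal 1,25D from normal vehicle without overlap, and the single high rescue vehicle point in Irf7, Isg15, Ifit1 and Ddx58 is replicate 2.

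Enterocyte markers moved along with this contrast. Their sum was 8522 to 15013 RPKM in normal 1,25D and 3960 to 7726 RPKM in normal vehicle, with no overlap. Of the markers, 4 of 17 were called higher (median log2 fold change 0.96), against 1.78% of all genes. In bulk tissue, more cells of a type and more RNA per cell cannot be told apart. T cell and intraepithelial lymphocyte markers summed to 46.4 to 63.5 RPKM over 19 genes in normal 1,25D and 32.2 to 51.9 RPKM in normal vehicle. limma called 0 of 16 tested genes, and 6 had an unadjusted p under 0.05, all higher, against 9.74% of all genes in that direction. Nkg7 and Xcl1 were listed at 0 in 7 and 5 of 24 libraries. Macrophage and dendritic cell markers summed to 163 to 246 RPKM over 17 genes in normal 1,25D, against 107 to 234 RPKM in normal vehicle. The exocrine pancreas markers, which share the RPKM total with everything else, summed to 895 to 20122 RPKM in normal 1,25D and 2839 to 94321 RPKM in normal vehicle.

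With the mean of the 17 enterocyte markers as a covariate, added after the data were seen, the median of the 36 genes on the normal diet was -0.02 in place of 0.35, and 16 of 36 lay above 0 in place of 30. Ifi27l2b then had a log2 fold change of 0.56 on the normal diet (adjusted p = 0.154) and was no longer called. On the rescue diet the same model gave it 0.78 (adjusted p = 0.00918), and over both diets 0.67 (adjusted p = 0.000344), both called. Of all genes tested, this model called 0.34% on the rescue diet, 0.425% on the normal diet and 1.49% over both diets. The enterocyte markers themselves differed between the groups. On the rescue diet 15 of 17 lay below 0 after 1,25D (median log2 fold change -0.46, 0 called higher or lower). What this covariate takes out thus cannot be told apart from an effect of 1,25D on the markers.

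Per 1000 RPKM of enterocyte markers, Ifi27l2b stood at 30.6 ± 6.5 RPKM in rescue 1,25D and 17.6 ± 3.1 RPKM in rescue vehicle (SD, n = 6 each). On the normal diet the ratio was 29.3 ± 4.7 in normal 1,25D and 16.2 ± 2.8 in normal vehicle (SD, n = 6 each). Neither pair of groups overlapped, with ratios of 22.1 to 36.4 in rescue 1,25D, 12.4 to 20.6 in rescue vehicle, 25.2 to 35.1 in normal 1,25D and 12.8 to 19.3 in normal vehicle. In this ratio the 1,25D libraries were thus 1.74-fold higher on the rescue diet and 1.81-fold higher on the normal diet (two-sided exact permutation test, p = 0.00216 on each diet, the smallest p that 6 against 6 libraries can give). On the rescue diet the median marker sum was 5869 RPKM after 1,25D and 8768 RPKM under vehicle. A lower marker sum raises the ratio by itself, and its part in the 1.74-fold difference was not tested. The marker sum weighs its most abundant genes most, Apoa4 (mean 1772 RPKM over 24 libraries, 190 to 4762) and Slc5a1 (mean 1128 RPKM, 284 to 2368). The ratio is thus not a level per enterocyte. It was formed after the values had been seen, and for Ifi27l2b alone. How many of all genes would separate in the same way was not computed.

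**Figure D3:**
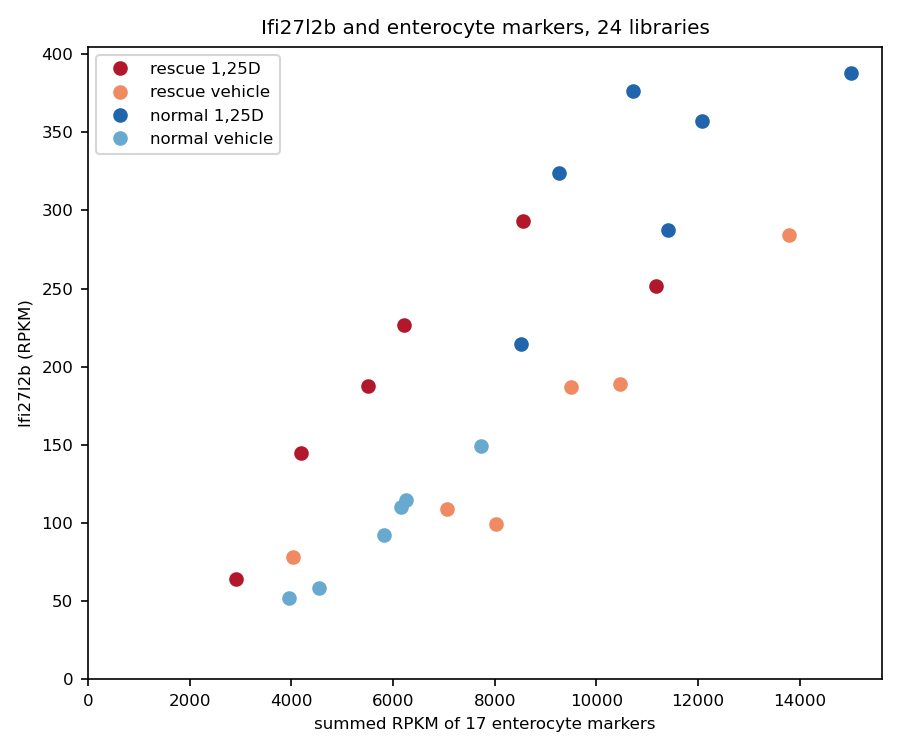
RPKM of Ifi27l2b (vertical axis) against the summed RPKM of 17 enterocyte markers (horizontal axis) in 24 libraries, coloured by group (rescue 1,25D, rescue vehicle, normal 1,25D, normal vehicle). Within each group the points climb together. On the normal diet the marker sums of the 1,25D and vehicle points do not overlap, and on both diets the ratios differ, with ratios of 22.1 or more per 1000 marker RPKM after 1,25D and 20.6 or less under vehicle.

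On the rescue diet the interferon response genes showed no called change after 1,25D. limma called 0 of the 36, against 0.145% of all genes, and 0 of 36 had an unadjusted p under 0.05, against 4.83% of all genes. Ifi27l2b had 64.2, 207 and 293 RPKM in rescue 1,25D, against 78.3, 148 and 284 RPKM in rescue vehicle, an overlap over nearly the whole range. Ifi44, a protein of the induced program with little-known function, had 2.38, 3.08 and 4.21 RPKM in rescue 1,25D, against 1.30, 2.30 and 3.23 RPKM in rescue vehicle (log2 0.45, SE 0.22, adjusted p = 0.878). Irf1 had 28.7, 41.6 and 49.7 RPKM in rescue 1,25D, against 43.6, 44.7 and 59.6 RPKM in rescue vehicle (log2 -0.29, SE 0.15, adjusted p = 0.878). Usp18 differed by -0.45 and Ifi27l2a, a relative of Ifi27l2b, by 0.31 on the log2 scale, with adjusted p = 0.879 for each. The median of the 36 was 0.07, against 0.06 over all genes, and 23 of 36 lay above 0 (63.9%, against 60.9%).

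A single library weighs on this contrast. Without rescue vehicle replicate 2 the median of the 36 on the rescue diet was 0.23, against 0.07 over all genes, and 33 of 36 lay above 0, against 61.0% of all genes. In that fit 3 of 36 genes had an unadjusted p under 0.05, against 5.34% of all genes (Parp14 at 0.37, Ifi44 at 0.55 and Zbp1 at 0.59), with none called. That library also had the highest enterocyte marker sum of its group (13795 RPKM, where the group ran between 4032 and 13795) and the highest T cell marker sum (67.1 RPKM, where the group ran between 29.2 and 67.1). The markers of each list did not rise evenly in it. Apoa4 (4762 RPKM, mean 1772 over 24 libraries) and Krt20 (811, mean 251) reached their highest values there. Epcam (684, mean 678) and Lgals4 (590, mean 617) stayed near their means. Among T cell markers Gzma was high (29.6 RPKM, mean 15.6), whereas Cd247 (8.57, mean 9.52) and Cd2 (0.45, mean 0.621) lay below their means. The part of these cell markers in the interferon response values of that library was not tested.

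**Figure D4:**
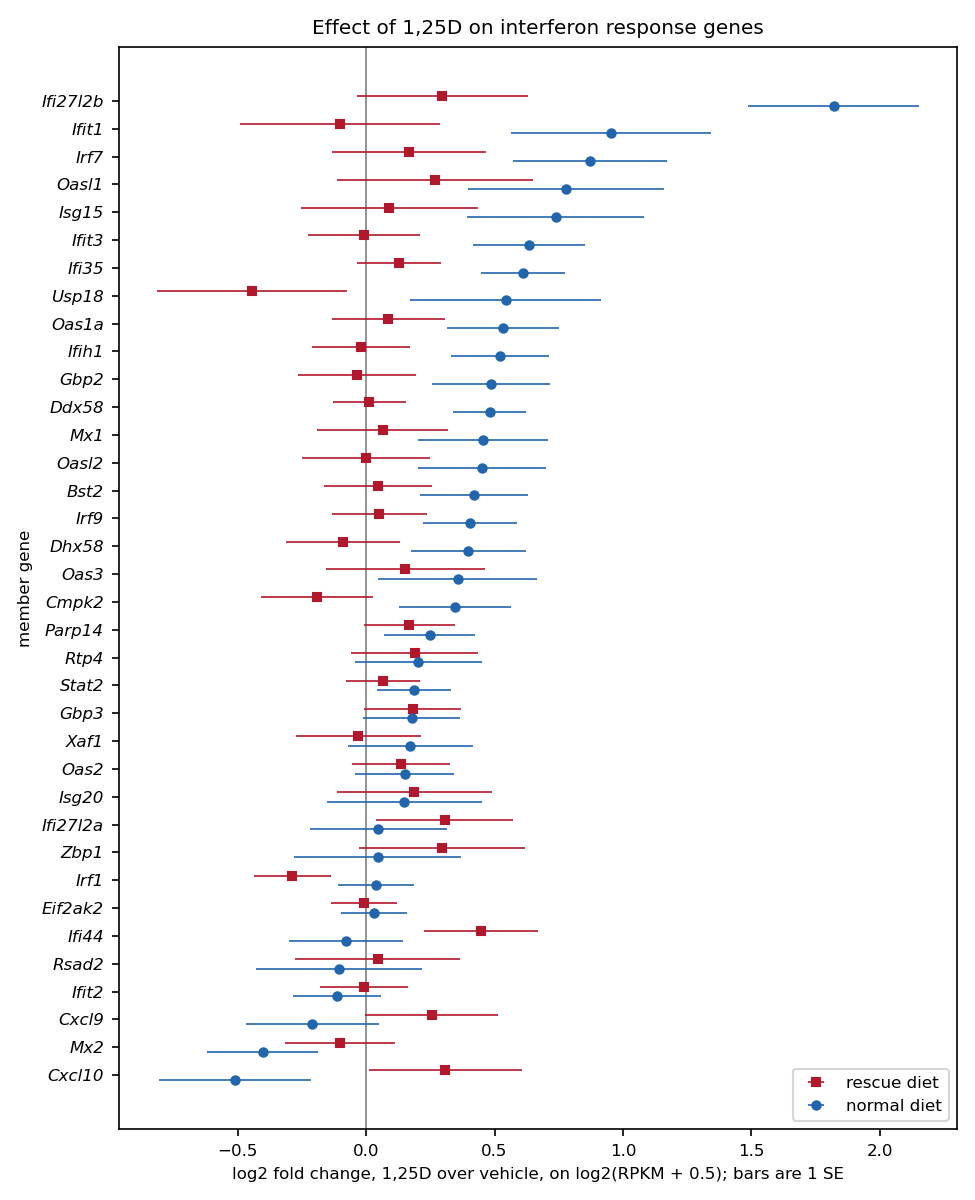
Log2 fold change of 1,25D over vehicle, on log2(RPKM + 0.5), for 36 interferon response genes, on the rescue diet (red squares) and the normal diet (blue circles), with bars of 1 SE. On the normal diet 30 points lie above 0, with Ifi27l2b farthest out at 1.82, while the rescue diet points center near 0 with a median of 0.07.

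A difference between the diets in the response to 1,25D was tested as an interaction, rescue minus normal. None of the 36 genes was called, against 0.005% of all genes, so a difference between the diets was not shown for any of them. The 4 with an unadjusted p under 0.05 (11.1%) were all lower, against 5.59% of all genes in that direction: Ifi27l2b (log2 -1.52, SE 0.47, adjusted p = 0.320), Ddx58 (-0.47, adjusted p = 0.617), Ifi35 (-0.48, adjusted p = 0.722) and Ifit3 (-0.64, adjusted p = 0.725). Without rescue vehicle replicate 2, 2 of 36 had an unadjusted p under 0.05, against 5.88% of all genes, with Ifi27l2b lower (log2 -1.33, adjusted p = 0.555) and Cxcl10 higher (1.01, adjusted p = 0.685). The median of the 36 was -0.34 with 10 above 0, against 0.01 over all genes, and -0.20 with 16 above 0 without that library. All 17 enterocyte markers lay below 0 in this contrast as well, and with their mean as a covariate Ifi27l2b had an interaction of 0.22.

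Over both diets together, 12 libraries against 12, Ifi27l2b was again the one gene called, 1 of 36 against 1.28% of all genes. It was 2.08-fold higher after 1,25D (log2 1.06, SE 0.23, adjusted p = 0.0156), although 1,25D and vehicle libraries overlapped. Ifi35 (0.37, adjusted p = 0.158), Ddx58 (0.25, adjusted p = 0.364) and Irf7 (0.52, adjusted p = 0.369) followed, and Ifi35 was called without rescue vehicle replicate 2 (adjusted p = 0.0283). The median was 0.19, against 0.07 over all genes.

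Diet by itself left no called change in these genes. Under vehicle limma called 0 of 36 and 0% of all genes, and 0 of 36 had an unadjusted p under 0.05, against 7.18% of all genes. Bst2 had 3.19, 5.50 and 7.40 RPKM in rescue vehicle, against 2.74, 4.0 and 4.79 RPKM in normal vehicle (log2 0.43, SE 0.21, adjusted p = 0.692). Ifi27l2b (log2 0.67, adjusted p = 0.703), Usp18 (0.63, adjusted p = 0.741) and Irf7 (0.48, adjusted p = 0.763) also had higher means in rescue vehicle, with ranges that overlapped; without rescue vehicle replicate 2 the value of Irf7 was 0.19. The median of the 36 was 0.20, against 0.10 over all genes, and 0.07 without rescue vehicle replicate 2. After quantile normalization the median of the 36 was 0.07 and that of all genes 0.0044.

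After 1,25D, limma again called 0 of 36 between the diets, against 0.01% of all genes, and 5 of 36 (13.9%) had an unadjusted p under 0.05, against 8.38% of all genes. Ifi27l2b had 64.2, 207 and 293 RPKM in rescue 1,25D, against 214, 341 and 388 RPKM in normal 1,25D (log2 -0.86, SE 0.33, adjusted p = 0.498). The other 4 were higher in rescue 1,25D. Cxcl9 had 0.401, 0.949 and 1.12 RPKM there, against 0.234, 0.306 and 0.638 RPKM in normal 1,25D (log2 0.66, SE 0.26, adjusted p = 0.504). Cxcl10 (log2 0.68, adjusted p = 0.550), Ifi27l2a (0.59, adjusted p = 0.556) and Ifi44 (0.46, adjusted p = 0.595) had the same direction. The chemokine values are near the low end of detection, where 1 read weighs much. Of the 36 genes, 13 lay above 0 (36.1%, against 70.7% of all genes), the median was -0.15, against 0.12 over all genes, and enterocyte markers had a median of -0.75 with 16 of 17 below 0. Averaged over both injections, 0 of 36 were called, with 0% of all genes called, and 3 of 36 had an unadjusted p under 0.05, against 9.5% of all genes (Ifi27l2a at 0.46, Cxcl9 at 0.43 and Isg20 at 0.46, followed by Ifit2 at 0.25 with a p of 0.0545).

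The genes that carry the interferon signal were followed from a list of ligands, receptors and regulators. Of 19 interferon ligands found, 13 reached the minimum level. On the normal diet limma called 0 of them, against 1.84% of all genes, with 1 at an unadjusted p under 0.05, against 12% of all genes. Ifng, the T cell product, was below the minimum, with medians of 0.138 RPKM in rescue 1,25D, 0.0285 in rescue vehicle, 0.118 in normal 1,25D and 0.141 in normal vehicle, and Ifnb1, the first type I interferon made in many cells, was listed at 0 in 1, 3, 2 and 2 libraries of those groups. Among 11 receptor and JAK-STAT genes, 1 was called on the normal diet, against 1.84% of all genes. Ifnar2, the signaling chain of the type I receptor, was 1.502-fold higher on the normal diet, at 10.7 ± 1.7 RPKM in normal 1,25D and 7.06 ± 1.64 RPKM in normal vehicle (SD, n = 6 each; log2 0.59, adjusted p = 0.0372), whereas on the rescue diet its log2 difference was -0.03 (adjusted p = 0.972). The interaction, rescue minus normal, was not called for it (log2 -0.62, adjusted p = 0.412). On the normal diet its libraries overlapped, at 9.0 to 14.1 RPKM after 1,25D and 4.96 to 9.25 RPKM under vehicle. Its partner Ifnar1 (log2 0.06), the gamma receptor Ifngr1 (-0.10) and the lambda receptor listed as Il28ra (0.18) were not called, with adjusted p between 0.873 and 0.973.

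Of 48 type I and III interferon targets tested from a further list, 1 was called higher and 1 lower on the normal diet, against 1.78% and 0.055% of all genes. The list holds Isg15, which is also 1 of the 36. Nmi, the partner of Ifi35, had 28.6 ± 3.6 RPKM in normal 1,25D and 18.3 ± 4.1 RPKM in normal vehicle (SD, n = 6 each; log2 0.65, adjusted p = 0.0316), and a log2 difference of -0.01 on the rescue diet (adjusted p = 0.994), with an interaction that was not called (log2 -0.66, adjusted p = 0.417). Apol10a, a member of the apolipoprotein L family, fell to 6.76 ± 3.49 RPKM in normal 1,25D, against 22.95 ± 9.94 RPKM in normal vehicle (SD, n = 6 each; log2 -1.71, adjusted p = 0.0164), and was lower over both diets together (log2 -1.15, adjusted p = 0.0266), while on the rescue diet alone it was not called (log2 -0.59, adjusted p = 0.878). Its direction is opposite to that of Ifi27l2b in the same libraries. For both Nmi and Apol10a the 1,25D and vehicle libraries overlapped on the normal diet. The enterocyte covariate and the fits without single libraries were not examined for Ifnar2, Nmi or Apol10a. Of 48 genes, 14 had an unadjusted p under 0.05 toward higher and 2 toward lower values on the normal diet, against 9.74% and 2.22% of all genes. Isg15 is 1 of the 14 and was also counted among the 36. The median of the list was 0.07, against 0.05 over all genes.

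Of 11 regulators that hold the response back, 2 were called over both diets, against 1.28% of all genes. Ptpn2, a phosphatase that removes phosphate from JAK and STAT proteins, had 12.8 ± 1.8 RPKM in rescue 1,25D, 9.87 ± 0.76 in rescue vehicle, 12.5 ± 1.8 in normal 1,25D and 9.22 ± 2.16 RPKM in normal vehicle (SD, n = 6 each), and was called higher after 1,25D (log2 0.40, adjusted p = 0.0452). Irf2, which competes with Irf1 for its sites, had 28.4 ± 1.8 RPKM in rescue 1,25D, 40.7 ± 8.9 in rescue vehicle, 33.6 ± 6.1 in normal 1,25D and 42.5 ± 7.5 RPKM in normal vehicle (SD, n = 6 each), and was called lower (log2 -0.41, adjusted p = 0.0302). For both Ptpn2 and Irf2 the 1,25D and vehicle libraries overlapped over both diets, and the alternatives were not examined for them. The other 9 of 11 listed brakes were not called. None of 17 nucleic acid sensing genes, 16 further interferon-induced GTPases, 16 class I antigen processing genes or 15 further interferon gamma targets was called by limma on the normal diet, against 1.84% of all genes. Of these lists 3, 1, 4 and 2 genes had an unadjusted p under 0.05, against 12% of all genes.

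Apart from the treatments, the genes varied together from library to library. Group means were removed, and each of the other 35 genes was compared with Irf7 over the 24 libraries (35 relations, two-sided permutation within groups, Benjamini-Hochberg adjusted). Pearson's r was above 0.5 for 20 of 35 genes, against 5.21% of the 19970 other genes tested, and 18 had an adjusted p under 0.05. Of these 18, Ifit3 (0.596), Zbp1 (0.219) and Mx1 (0.208) had an adjusted p above 0.05 for rho. The closest was Oasl2 (r = 0.887, permutation p = 1e-05, adjusted p = 0.00035; rho = 0.821, p = 4e-05), then Oas3 (r = 0.844; rho = 0.765), Rtp4 (r = 0.788; rho = 0.704), Oas1a (r = 0.777; rho = 0.723), Ifit1 (r = 0.747; rho = 0.671) and Ifi27l2b (r = 0.740; rho = 0.735). For these the permutation p was 0.00013 or less for r and 0.00102 or less for rho. Without rescue vehicle replicate 2 and normal 1,25D replicate 2, the libraries farthest from the median of Irf7, 14 of 35 had an r above 0.5, and Oasl2 had 0.832. The share of the other genes tested was not computed without those libraries. Ifit3 had an r of 0.569 (adjusted p = 0.0440) but a rho of 0.177 (permutation p = 0.442), and its r was 0.397 without those libraries. Of members with a promoter window, 8 of 13 with an r above 0.5 and 6 of 12 with a lower r held an ISRE.

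Outside the list, the 10 genes with the highest r with Irf7 were Edf1, Bst1, Cndp1, B2m, Igsf3, Pdzk1, Rhoc, 4930442L01Rik, Apol7a and Dak, between 0.839 and 0.803 over 24 libraries. B2m, the light chain of class I molecules (r = 0.828), belongs to the antigen processing list, and Pdzk1, a scaffold of the brush border (r = 0.825), to the enterocyte markers.

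A further 108 relations set each of the 36 genes against the mean log2 level of 3 cell marker lists, again with group means removed; they were added after the data were seen, and p-values were adjusted over all 108. These relations were not computed for the other genes tested, so the counts for the 3 lists have no share of all genes beside them. With enterocyte markers 16 genes had a positive relation past the threshold for r and 0 a negative one. Of these, Oasl1 (0.152), Ddx58 (0.0919) and Cmpk2 (0.0657) had an adjusted p above 0.05 for rho. Ifi27l2b followed them most closely (r = 0.930, rho = 0.943, permutation p = 1e-05 for both, adjusted p = 0.00108), and r was 0.894 without rescue 1,25D replicate 5 and rescue vehicle replicate 6, the libraries farthest from the median of the markers. Ifit1 (r = 0.819, rho = 0.794), Rtp4 (r = 0.788, rho = 0.810), Ifih1 (r = 0.772, rho = 0.679), Oas1a (r = 0.760, rho = 0.695), Usp18 (r = 0.741, rho = 0.828) and Irf7 itself (r = 0.740, rho = 0.770) did so as well, each with an adjusted p of 0.00444 or less for r and a permutation p of 0.00183 or less for rho. For these 6, r was between 0.726 and 0.797 without the same libraries. Rescue vehicle replicate 2, above its group mean for 36 of 36 genes and with the highest enterocyte marker sum of its group, stayed in. No r with enterocyte markers was computed without that replicate. The p of 1e-05 is the smallest that 100000 permutations can give.

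Another set of genes went with macrophage and dendritic cell markers. Ifit2 (r = 0.765, rho = 0.805, adjusted p = 0.00444 for r), Gbp3 (r = 0.657, rho = 0.621, adjusted p = 0.0118), Gbp2 (r = 0.657, rho = 0.602, adjusted p = 0.0170), Cxcl10 (r = 0.630, rho = 0.697, adjusted p = 0.0158) and Ifi27l2a (r = 0.530, rho = 0.533, adjusted p = 0.0390) had positive relations, and Usp18 a negative one (r = -0.58, rho = -0.60, adjusted p = 0.0473). Permutation p was 0.0106 or less for each rho. Without rescue 1,25D replicate 6 and rescue vehicle replicate 1, the libraries farthest from the median of these markers, Ifit2 had an r of 0.677 and Ifi27l2a one of 0.400. With Irf7, Gbp3 had an r of 0.246, Ifit2 0.06, Cxcl10 0.03, Gbp2 -0.03 and Ifi27l2a -0.11. T cell markers had positive relations with 10 genes, led by Zbp1 (r = 0.695, rho = 0.583, adjusted p = 0.00952), Mx1 (r = 0.687, rho = 0.659, adjusted p = 0.0135), Oas3 (r = 0.668, rho = 0.514, adjusted p = 0.0107) and Ifi44 (r = 0.659, rho = 0.640, adjusted p = 0.0144), with a permutation p of 0.0168 or less for each rho. Adjusted p for rho was 0.0359 for Zbp1, 0.0177 for Mx1, 0.0199 for Ifi44, 0.0165 for Eif2ak2 and 0.0492 for Ddx58. It was above 0.05 for the others of the 10: Oas3 (0.0657), Parp14 (0.0687), Oasl1 (0.126), Ifih1 (0.13) and Oas1a (0.152). Without rescue vehicle replicate 2 and rescue 1,25D replicate 5, Zbp1, Mx1, Oas3 and Ifi44 had r between 0.487 and 0.626. Which cells made these transcripts was not tested.

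**Figure D5:**
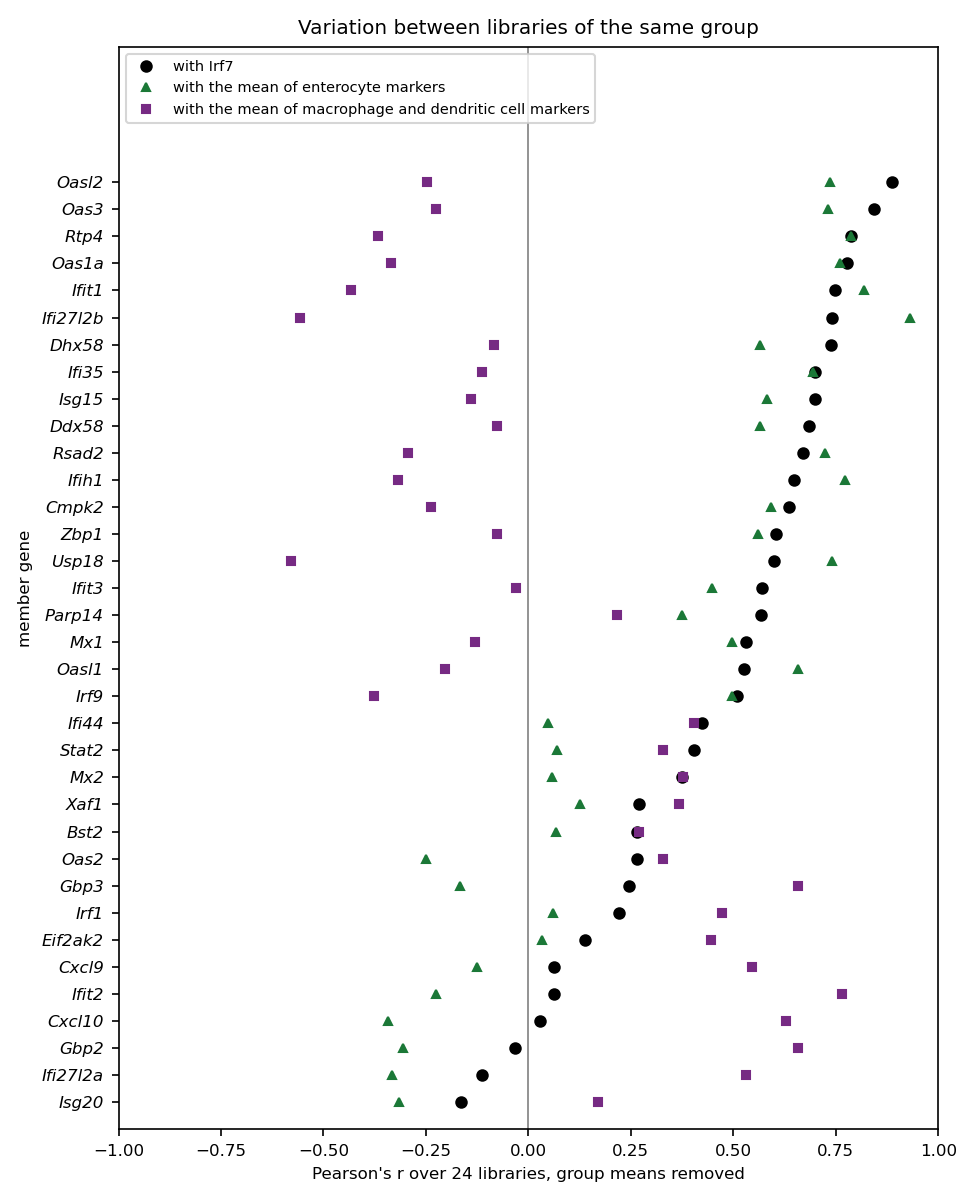
Pearson's r over 24 libraries, after removal of group means, of each interferon response gene with Irf7 (black), with the mean of enterocyte markers (green) and with the mean of macrophage and dendritic cell markers (purple). Genes near the top, such as Oasl2, Rtp4 and Ifit1, have high r with Irf7 and enterocyte markers. Some genes near the bottom (Gbp2, Cxcl10 and Ifit2) have high r with macrophage and dendritic cell markers, whereas Isg20, the lowest with Irf7, has 0.17 with them.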

How the data were processed

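Each library has 1 table of RPKM values, deposited by the authors and scaled by them to feature length and sequencing depth, per the file headers. The submitters' processing notes name TopHat and mm9, a mouse genome build; how genes were counted, with which annotation and whether by strand is not given in the sources used here. Per the labels' protocols, ribosomal RNA was depleted and libraries were directional.

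Entries with the same symbol were summed (5 of the 36 genes had several). Absolute depth is unknown; relative depth came from the steps between low values over 2114 entries (90.6% of library pairs within 0.05 on the log2 scale). limma 3.58.1 (R 4.3.3) was run with an intensity trend on log2(RPKM + 0.5) for 20006 genes, those at 0.5 RPKM or more in at least 6 libraries, in 1 fit of 24 libraries that leaves 20 degrees of freedom. Called means an adjusted p under 0.05 by Benjamini-Hochberg across all of them. Fold changes understate those of low genes. Tests were two-sided, and the script was tested on simulated data. Python 3.11.15 was used for figures and promoter searches.

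Members and lists were chosen with earlier results of these data known. Named with values are the genes called, the 4 with the smallest p per comparison and called pathway genes; others were picked after their values were seen. Alternatives covered pseudocount, filter, scaling, library weights, a replicate block, the samples fitted, the threshold and single libraries.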

Additional observations from a re-analysis of the deposited data

Results flagged for a closer look

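In each group of 6 libraries, every interferon response gene was examined for a library whose gap to its neighbour took up more of the range of the group, on the log2 scale, than Dixon's 95% critical value for 6 samples allows. 9 of 144 gene and group pairs passed it, and chance gives about 1 in 20. For 3 of them the library was the high rescue vehicle replicate 2, with gap ratios of 0.710 for Ddx58, 0.636 for Parp14 and 0.627 for Cmpk2. In normal vehicle, replicate 6 was low for Stat2 (0.668) and Xaf1 (0.6252), and replicate 3 was listed at 0 for Isg20 (0.708). Normal vehicle replicate 6 also lay low over all genes tested, with a median deviation from its group mean of -0.41 on the log2 scale (-0.25 for the interferon response genes). It had the highest exocrine pancreas marker sum of all libraries, 94321 RPKM. In normal 1,25D, replicate 3 was high for Ifit3 (0.739) and replicate 6 low for Ifit2 (0.711). Rescue 1,25D replicate 6 was low for Cxcl9 (0.657). No explanation of these was tested.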

How the results depend on the processing

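Besides leaving out each library in turn, 12 alternatives were tried. On the normal diet 1 interferon response gene was called; the count was 2 with a filter of 1 RPKM, 2 with the replicate block, 3 with only the groups of the comparison, 3 at an adjusted p under 0.1, 0 with the enterocyte covariate and 1 to 3 without single libraries (3 without rescue vehicle replicate 2, and 2 without normal vehicle replicate 3, rescue vehicle replicates 5 and 6, and rescue 1,25D replicates 5 and 6). On the rescue diet the covariate gave 1 (Ifi27l2b) in place of 0, and between diets after 1,25D library weights gave 1 (Cxcl9, adjusted p = 0.0345) in place of 0. Over both diets the count was 1 to 2 without single libraries. Of all genes, 1.84% were called on the normal diet in the main fit, 2.05% without rescue vehicle replicate 2 and 0.425% with the covariate. The covariate called 0.34% on the rescue diet, and over both diets 1.54% were called without rescue vehicle replicate 2. For the other counts above the share of all genes was not computed, so they have no share beside them. Replicate numbers did not pair the libraries (correlations of same-numbered deviations between -0.44 and 0.48), so the block only shares a number.

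The enterocyte covariate, added after the data were seen, changed the sign of 16 of 36 log2 values on the normal diet, 15 of them to below 0 (Zbp1 to -0.69, Usp18 to -0.57, Rtp4 to -0.56, Ifit1 to -0.36, Oasl1 to -0.24 and Irf7 to -0.0175 among them), and of 6 on the rescue diet, 14 between diets under vehicle, 20 between diets after 1,25D, 21 in the interaction, 7 over both diets and 11 over both injections. Among the genes with the smallest p it brought, between diets under vehicle, Ifi27l2b to -0.0501, Usp18 to -0.0018 and Irf7 to -0.0293; Ifi27l2b between diets after 1,25D to 0.17; and the interactions of Ifi27l2b to 0.22 and Ifi35 to 0.11. It takes out what varies with the enterocyte markers. The count of genes that vary with Irf7 was 13 to 18 over the alternatives tried. Low genes such as Cxcl10 rest on few reads, and RPKM gives no counting error. Quantile normalization brought the median of the 36 on the rescue diet to -0.0016, with all genes at -0.0114. The median of the 36 between diets over both injections was 0.0042 as deposited, -0.0795 after quantile normalization and -0.103 with median-of-ratios scaling, and -0.0755 without rescue vehicle replicate 2; in the other 5 comparisons it kept its sign under both scalings.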
